A study of Mus musculus with 11 samples.

Results

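Ly49 receptors are the surface proteins on which mouse CD8+ Tregs are sorted, and their genes carry the symbol Klra. The 10 genes described here were taken by symbol from the count table: Klra1, Klra3, Klra4, Klra5, Klra6, Klra7, Klra8, Klra9, Klra10 and the pseudogene Klra14-ps. They are 10 of the 54532 genes in the table, and all 10 passed the filter on low counts that left 13129 genes for testing. Bulk RNA sequencing was performed on CD8+CD44+Ly49+CD122+ T cells from the spleens of wild-type (WT) mice of the C57BL/6J strain named in the study's methods, in 11 libraries. Young mice gave 3 libraries of each sex, and middle-aged mice gave 2 of males and 3 of females. Young mice were 2 to 3 months old, and middle-aged mice, which the sample labels call Old, were 10 to 12 months old. All groups went through the same sort, so a Ly49-positive gate applies to every library and the presence of Ly49 transcripts is no finding in itself. How many mice contributed to a library is not given in the sources used here.

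The cells carried transcripts of the T cell receptor complex and of CD8 at high levels. Levels are in CPM, the usual per-library scaling of counts, here with edgeR's TMM factors. In the 6 young libraries Cd3e, a chain of the T cell receptor complex, was at 807 ± 158 CPM (SD), and in the 5 middle-aged ones at 812 ± 133 CPM. Cd8a was at 845 ± 105 and 809.8 ± 144 CPM in the same groups. Il2rb, which encodes the gate marker CD122, was at 552 to 2625 CPM in young and 1956 to 2579 CPM in middle-aged libraries. Cd44 was at 42.3 to 139 and 98.4 to 166 CPM in the same groups. Young male 1 was the lowest library in both genes. Libraries held between 6135736 and 24394532 counts. Middle-aged female 2 stood apart, with Lyz2, a myeloid lysozyme gene, at 1058 CPM against 18.7 to 285 CPM in the other libraries, and the age differences that depend on it are also given without it.

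Ly49 receptors are type II membrane proteins of the C-type lectin fold, best known from NK cells, where most of them recognise MHC class I molecules on other cells. Inhibitory members carry an ITIM in the cytoplasmic tail, whose tyrosine recruits phosphatases such as SHP-1 after ligation. Activating members lack that tyrosine and instead hold a charged residue in the membrane, through which they pair with the adaptor DAP12, encoded by Tyrobp. Klra4 (Ly49D) and Klra8 (Ly49H) are the activating members here, and Klra1 (Ly49A), Klra3 (Ly49C), Klra5 (Ly49E), Klra6 (Ly49F), Klra7 (Ly49G), Klra9 (Ly49I) and Klra10 (Ly49J) are inhibitory. The antibody 14B11, which is commonly used to stain these cells, binds Ly49C, Ly49F, Ly49H and Ly49I.

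The 10 genes lie on the minus strand of chromosome 6 between 129898996 and 130386874 of GRCm38, a span of 488 kb. The coding sequences of GENCODE M21 on that build separate both classes at the ITIM. The first 30 coding bases are shown for the 5 inhibitory members with the most counts and for both activating members. They illustrate the classes, which were assigned to the genes beforehand. Capitals mark codon 8, counted from the start codon.
Klra7: atgagtgagcaggaggtcactTACtcaact
Klra6: atgagtgagccggaggtcactTACtcaact
Klra3: atgagtgagccagaggtcactTACtcaact
Klra1: atgagtgagcaggaggtcactTATtcaatg
Klra9: atgaatgagccggaggtcactTACtcaact
Klra4: atgactgaacaggaagacactTTCtcagct
Klra8: atgagtgagcaggaggtcactTTCccaact

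Codon 8 read tyrosine in all 7 inhibitory members and phenylalanine in both activating ones, which is Y8F relative to Klra6 with residues counted from the initial methionine. A second difference lay in the stretch that crosses the membrane, shown here for 2 members of each class from codon 53, with codon 57 in capitals.
Klra7: ctctgtttccttCTCctggtaactgttgca
Klra6: ctctgtttccttCTTcttataacagttgca
Klra4: ctcatttcccttCGActggtaactgttgca
Klra8: ctctgttcccttCGGctggtaattgttgca

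Codon 57 read leucine in the 7 inhibitory members and arginine in Klra4 and Klra8 (L57R relative to Klra6). Some of the genes are close copies, and this bears on how far a count can be assigned to 1 of them. Klra10 and Klra9 shared 96.9% of their aligned coding bases, Klra3 and Klra9 95.9%, and Klra1 and Klra4 88.0%. Other pairs were farther apart, with 78.8% for Klra6 and Klra7, 77.4% for Klra4 and Klra8, and 74.3% for Klra7 and Klra8. Of all 31-base words in the annotated transcripts of each gene, the share found in no other gene was 92.4% for Klra1, 88.6% for Klra5, 84.4% for Klra6, 82.5% for Klra4 and 75.3% for Klra7. It was lower for Klra3 (56.5%), Klra14-ps (54.6%), Klra8 (45.03%), Klra9 (42.2%) and Klra10 (34.9%). How reads that match several of these genes were assigned is not given in the sources used here, so values of the last 5 genes are uncertain as to the copy, and a part of each may stem from a neighbour.

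Inhibitory members made up most Ly49 transcripts in every library. Per kilobase of transcript, the scale on which genes can be compared with each other, Klra7 came first in 11 of 11 libraries, with a mean of 280.1 CPM per kb (SD 173, n = 11). Klra6 followed at 174 CPM per kb (SD 93.8), Klra3 at 98.7 (SD 51.0), Klra1 at 74.9 (SD 52.2) and Klra9 at 61.5 (SD 32.1). The activating genes Klra4 and Klra8 were at 23.7 (SD 13.8) and 21.6 CPM per kb (SD 9.32). Klra14-ps, Klra5 and Klra10 were lowest, at 8.71, 5.05 and 3.90 CPM per kb. The full order of these means was found in 2 of 11 libraries. Klra6 exceeded Klra3 in 9 of 11 libraries, Klra3 exceeded Klra1 in 9, Klra1 exceeded Klra9 in 10, and Klra9 exceeded Klra4 in 9. Klra4 exceeded Klra8 in 6 of 11 libraries, which were the 6 young ones, and was below it in every middle-aged one. Klra5 and Klra10 had no fixed order, with Klra5 above in 6.

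As a share of the summed counts of the 10 genes, Klra7 took 35.8% ± 4.48 (SD, n = 11), Klra6 20.2% ± 4.52, Klra3 13.4% ± 4.20, Klra1 13.03% ± 2.38 and Klra9 8.25% ± 1.14. These 5 inhibitory genes together held between 82.4% and 97.9% of the summed counts. Klra4 held 3.72% ± 2.63, Klra8 3.23% ± 2.02, Klra14-ps 1.20% ± 0.657, Klra5 0.768% ± 0.352 and Klra10 0.420% ± 0.254. The 4 genes whose products 14B11 binds (Klra3, Klra6, Klra8 and Klra9) held 45.03% ± 4.87 of the sum, and genes of receptors outside that group held the rest, with Klra7 and Klra1 the largest of them.

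**Figure D1:**
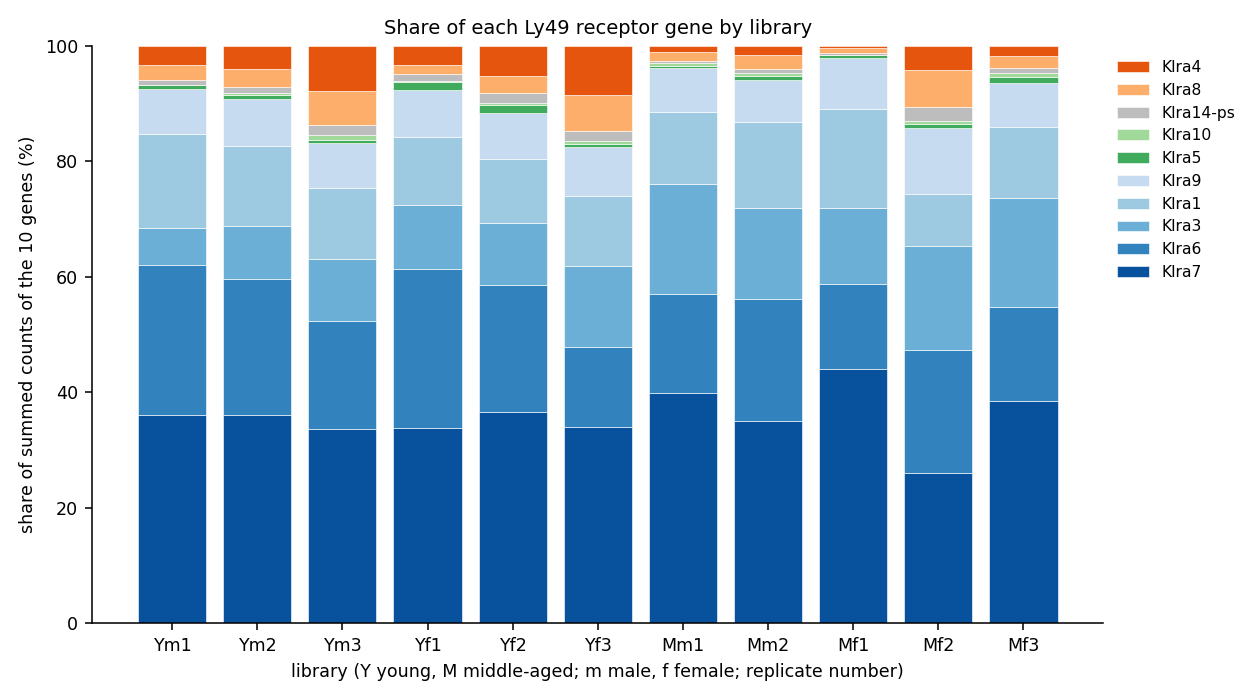
Share of each gene in the summed counts of the 10 Ly49 receptor genes (percent, vertical axis) for each of the 11 libraries, with inhibitory genes in blue and green, activating genes in orange and the pseudogene in grey. Klra7 is the largest segment in every library, from 26.1% to 44.1%, and the orange segments are thinnest in middle-aged female 1.

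The receptors' summed level differed more between libraries than between ages. The sum over the 10 genes was at 571 CPM in the lowest, 756 in the median and 1604 CPM in the highest young library. In middle-aged CD8+ Tregs it was at 1120.0 and 674 CPM in males 1 and 2, and at 2039, 644 and 611 CPM in females 1, 2 and 3. The means were 905 ± 394 CPM (SD, n = 6) and 1018 ± 608 CPM (SD, n = 5), and the age groups overlapped almost throughout. In log2, the mean of middle-aged libraries was 0.10 above that of young ones, and without middle-aged female 1 it was 0.19 below (-0.19). These reads made up 0.0632% to 0.190% of a library.

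In both ages and both sexes, the library numbered 1 had the highest sum of its group, and the 4 of them ranged from 1120.0 to 2039 CPM against 571 to 767 CPM in the other 7. The ratio of the means was 2.73 for Klra1, 2.53 for Klra7, 2.33 for Klra6, 2.16 for Klra9, 1.95 for Klra3 and 1.93 for Klra5. It was 0.90 for Klra4, 0.86 for Klra8, 0.95 for Klra14-ps and 0.81 for Klra10. The same 4 libraries were also high in other short transcripts. Over 1595 tested genes with lengths of 800 to 1800 bases, a range that holds all 10 Ly49 genes (823 to 1764 bases), their median was 0.56 above the other libraries in log2, while it was 0.68 below (-0.68) over 4726 genes longer than 5000 bases. The part of transcript length in the Ly49 levels was not tested.

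Between ages, the activating receptor gene Klra4 had the largest difference of the 10. Klra4 lies at 130043731 to 130067271, and its product Ly49D signals through DAP12 and binds the MHC class I molecule H-2Dd. Its level was 30.7 CPM in the lowest, 41.4 in the median and 53.0 CPM in the highest young library. It was at 11.5 and 10.9 CPM in middle-aged males 1 and 2, and at 8.21, 26.4 and 10.5 CPM in middle-aged females 1, 2 and 3. Every middle-aged library was below every young one, with middle-aged female 2 closest to them. The means were 42.8 ± 8.94 CPM (SD, n = 6) and 13.5 ± 7.30 CPM (SD, n = 5), and the log2 fold change was -1.70 (standard error 0.34, adjusted p = 0.228) in edgeR's quasi-likelihood test with sex as a second term. Klra4 therefore did not pass an adjusted p under 0.05 in that test, which called 3 of 13129 genes (0.0229%) and 0 of the 10 Ly49 genes. Other tools differed. With limma voom and sample quality weights the adjusted p was 0.00637 (log2 fold change -1.78), and with DESeq2 it was 0.000407 (-1.71). Over 25 alternatives the adjusted p ranged from 0.000407 to 1.00 while the log2 fold change stayed between -2.06 and -1.50, and without middle-aged female 2 it was -2.06 (edgeR adjusted p = 0.0531). In a bulk sample, fewer cells with a transcript and less of it per cell cannot be told apart.

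Klra4 was the only one of the 10 genes whose age groups did not overlap. Among all tested genes, 0.297% had all middle-aged libraries below all young ones, and 1.01% had all above, a direction with 0 of the 10 genes.

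The levels of the other activating gene, Klra8, overlapped between the ages through middle-aged female 2. Ly49H, its product, is known for binding the m157 protein of mouse cytomegalovirus. Klra8 was at 17.4 CPM in the lowest, 28.6 in the median and 40.7 CPM in the highest young library. In middle-aged males it was at 17.1 and 15.8 CPM, and in middle-aged females at 17.1, 41.5 and 12.5 CPM. The lowest young library was above 4 of these 5 values, and the highest young library was below that of female 2. EdgeR put the log2 fold change at -0.51 with a standard error of 0.38 (adjusted p = 1.00), with a range of 2 standard errors from -1.28 to 0.26. Without middle-aged female 2 the estimate was -0.90 (standard error 0.32, edgeR adjusted p = 1.00), with an unadjusted p under 0.05. The pseudogene Klra14-ps, which shares 34.5% of its 31-base words with Klra8, had the same layout, with 8.69 to 13.7 CPM in young libraries, 4.33 to 6.04 CPM in 4 middle-aged ones and 16.0 CPM in middle-aged female 2 (log2 fold change -0.73, standard error 0.40, edgeR adjusted p = 1.00). Without that library the estimate for Klra14-ps was -1.11 (standard error 0.35, edgeR adjusted p = 0.904), also with an unadjusted p under 0.05.

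**Figure D2:**
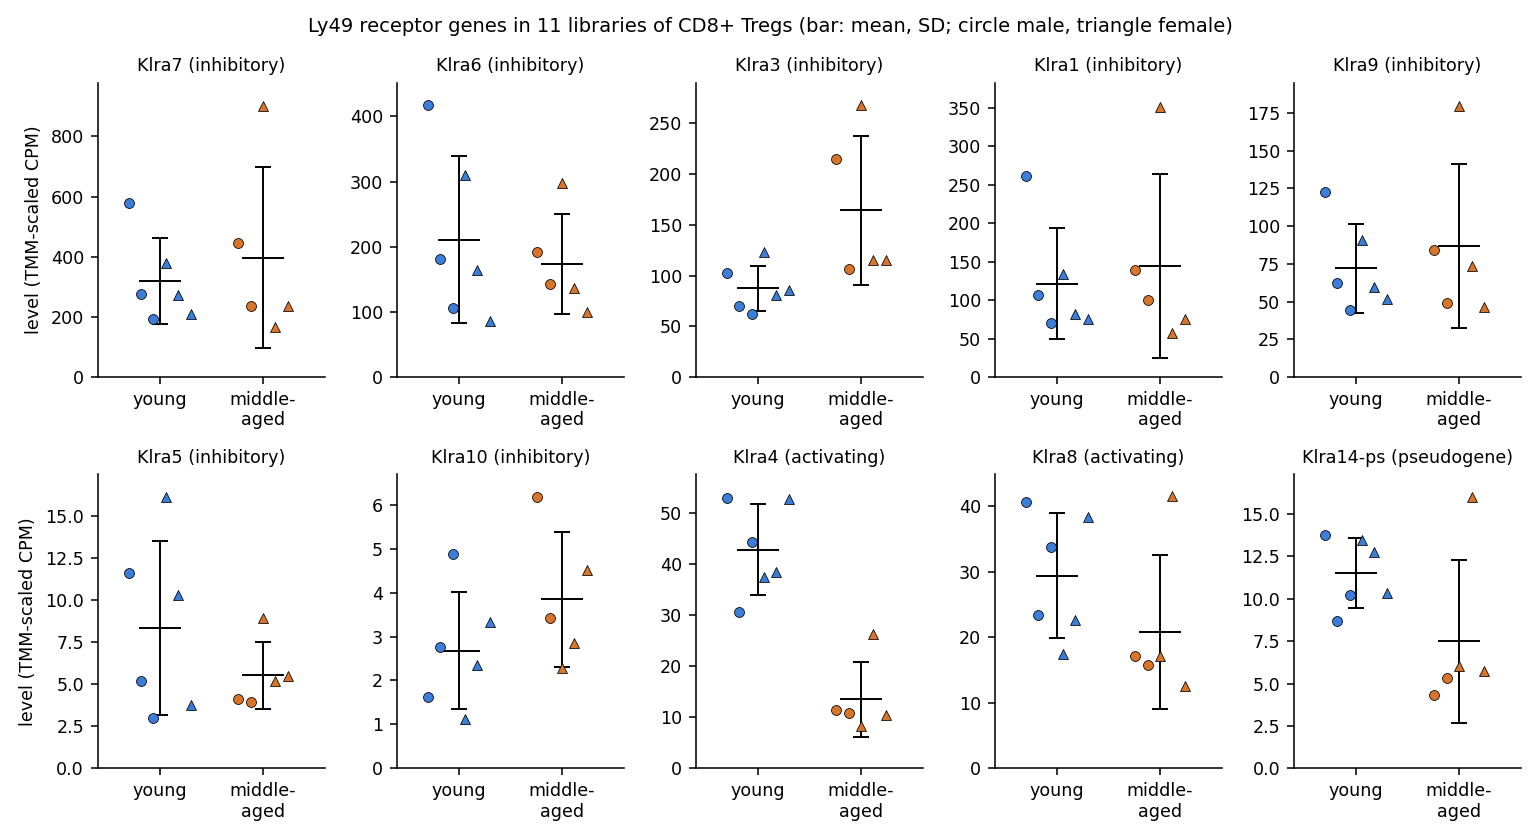
Level of each of the 10 genes (CPM after TMM scaling, vertical axis from 0, a scale for each panel) in 6 young and 5 middle-aged libraries, with circles for males, triangles for females, and a bar for the mean with its SD. The Klra4 panel is the only one without overlap, at 30.7 to 53.0 CPM against 8.21 to 26.4 CPM.

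Among inhibitory genes, Klra3 had the largest difference. Klra3 lies at 130323289 to 130337574 and encodes Ly49C, a receptor for H-2Kb. Its level was 61.8 CPM in the lowest, 83.4 in the median and 123 CPM in the highest young library. It was at 214 and 107 CPM in middle-aged males 1 and 2, and at 268, 115 and 116 CPM in middle-aged females 1, 2 and 3. Only young female 1 reached into the middle-aged range. The means were 87.4 ± 22.4 CPM (SD, n = 6) and 164 ± 73.1 CPM (SD, n = 5), and edgeR put the log2 difference at 0.90 with a standard error of 0.30 (adjusted p = 0.910). Across 25 alternatives the log2 fold change of Klra3 lay between 0.66 and 1.11 and its adjusted p between 0.0665 and 1.00. The lowest adjusted p came from edgeR with a block for replicate number shared by both sexes. Between libraries of the same number, middle-aged minus young, log2 CPM differed by 1.09 for number 1, 0.56 for number 2 and 0.66 for number 3. Klra3 shares 31.8% of its 31-base words with Klra9, whose own level was 71.9 ± 29.6 and 86.7 ± 54.5 CPM in the young and middle-aged group.

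At an unadjusted p under 0.05, then, Klra4 was lower and Klra3 higher, 2 of the 10 genes, where 2.99% of all tested genes had such a p. Without middle-aged female 2 there were 4, with Klra8 and Klra14-ps lower as well, against 2.71% of all genes tested then. The median log2 fold change over the 10 genes was -0.0072, and over all tested genes 0.0028. Of the 10 estimates 5 were positive and 5 negative.

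The members with the most counts gave no age difference beyond their spread. Klra7 (130218605 to 130233322, encoding Ly49G) was at 192 CPM in the lowest, 275 in the median and 579 CPM in the highest young library. In middle-aged males 1 and 2 it was at 446 and 236 CPM, and in females 1, 2 and 3 at 899.8, 168 and 236 CPM. The groups overlapped and edgeR put the log2 difference at 0.32 with a standard error of 0.46 (adjusted p = 1.00). Klra6 (130013033 to 130026954, encoding Ly49F) was at 85.2 CPM in the lowest, 172 in the median and 417 CPM in the highest young library. In middle-aged males it was at 192 and 142 CPM, and in females at 297, 137 and 99.5 CPM. EdgeR put the log2 difference at -0.25 with a standard error of 0.44 (adjusted p = 1.00), and it lay between -0.57 and 0.37 over the alternatives.

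For Klra1, which encodes the H-2Dd receptor Ly49A, levels were 69.7 to 261 CPM against 57.7 to 351 CPM in the middle-aged group, with a log2 fold change of 0.29 (standard error 0.52). For Klra9, encoding Ly49I, it was 0.24 (standard error 0.40). Klra5, encoding the Ly49E receptor of fetal NK cells, was at 3.01 to 16.1 and 3.95 to 8.90 CPM (log2 fold change -0.65, standard error 0.49), and Klra10 at 1.11 to 4.87 and 2.28 to 6.18 CPM (0.55, standard error 0.50). None of these 4 genes had an unadjusted edgeR p under 0.05, and each adjusted p was 1.00. The spread leaves room for differences in either direction, with 2 standard errors reaching from -0.75 to 1.34 for Klra1 and from -0.57 to 1.05 for Klra9. The direction of Klra1, Klra7 and Klra9 turned without middle-aged female 1 (-0.41, -0.27 and -0.18).

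**Figure D3:**
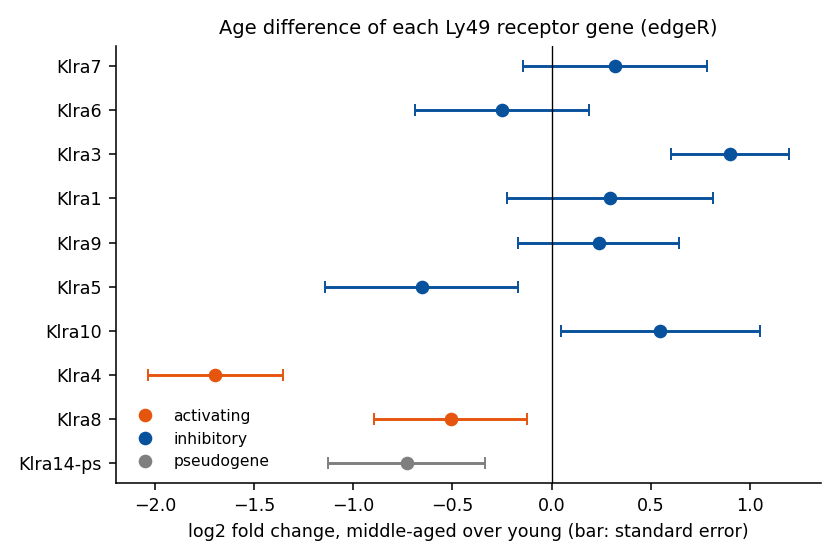
Log2 fold change of each gene, middle-aged over young, from edgeR (horizontal axis), with the standard error as a bar and colours for inhibitory, activating and pseudogene members. Klra4 at -1.70 and Klra3 at 0.90 are farthest from 0, in opposite directions.

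Shares of the summed counts set the 10 genes against each other within a library, so that libraries with different sums can be set side by side. Klra3 took 6.39% to 13.96% of the sum in young libraries (mean 10.3% ± 2.49, n = 6) and 13.2% to 19.1% in middle-aged ones (17.0% ± 2.51, n = 5). Only young female 3 (13.96%) reached above middle-aged female 1 (13.2%). Klra4 took 3.30% to 8.55% in young libraries (5.35% ± 2.29), and 1.03% and 1.61% in middle-aged males and 0.403%, 4.10% and 1.72% in middle-aged females (mean 1.77% ± 1.40). For Klra6 the shares were 21.9% ± 5.07 and 18.1% ± 3.00, for Klra7 35.1% ± 1.35 and 36.7% ± 6.79, and for Klra1 12.9% ± 1.89 and 13.2% ± 3.10. The Klra7 share stayed within 33.7% to 36.6% in all 6 young libraries, whose Klra7 levels spanned 192 to 579 CPM, and spread from 26.1% to 44.1% among middle-aged ones. Shares of counts per kb gave nearly the same values, such as 10.6% and 17.4% for Klra3.

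The activating share, which is the share of Klra4 and Klra8 in the counts of all 9 genes of either class, was 4.95% in the lowest, 7.74% in the median and 15.01% in the highest young library. In middle-aged males 1 and 2 it was 2.57% and 3.98%, and in middle-aged females 1, 2 and 3 it was 1.25%, 10.8% and 3.81%. In 4 middle-aged libraries it was below all young ones, and female 2 lay among the highest 3 of all 11. The means were 9.21% ± 4.25 (SD, n = 6) and 4.48% ± 3.71 (SD, n = 5), a difference of -4.73 percentage points, and without middle-aged female 2 it was -6.31. The share also differed by replicate number, with a mean of 3.66% in the 4 libraries numbered 1, those with the highest summed levels, and 9.005% in the other 7. Between libraries of the same number, middle-aged minus young, the difference was -3.51 points for number 1, -0.34 for number 2 and -10.7 for number 3. The 95% Wilson intervals, which cover counting error only, were at most from 14.3% to 15.7% (young female 3), so counting error was small beside the spread between libraries. The inhibitory genes summed to 821 ± 388 and 976 ± 616 CPM in the young and middle-aged group, and the activating genes to 72.2 ± 17.9 and 34.3 ± 18.9 CPM.

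Within the activating pair, Klra4 counts stood at 1.30 to 2.16 times those of Klra8 in young libraries. In middle-aged males the ratio was 0.67 and 0.69, and in middle-aged females 0.48, 0.63 and 0.84. Middle-aged female 2 lay with the other middle-aged libraries in this ratio (0.63), though not in the level of either gene. The ratio was chosen after the values of both genes had been seen, and is given without a test.

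**Figure D4:**
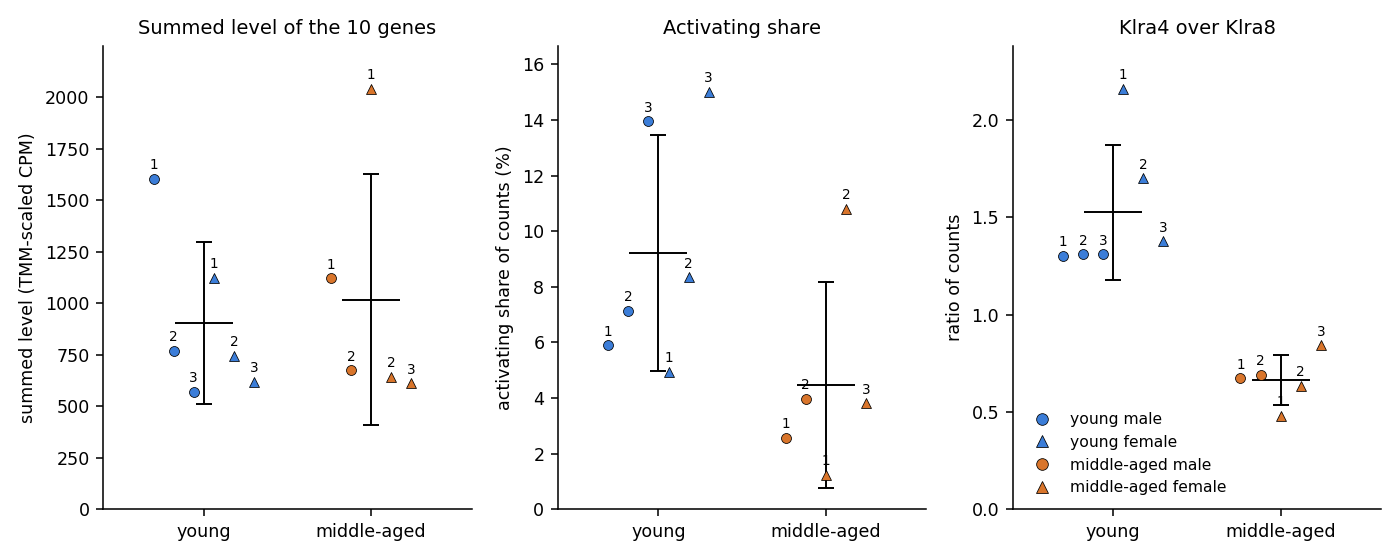
Summed level of the 10 genes (CPM), share of Klra4 and Klra8 in the counts of activating and inhibitory genes (percent), and ratio of Klra4 to Klra8 counts, in young and middle-aged libraries labelled by replicate number, with the mean and SD as bars. The sum overlaps between ages, the activating share overlaps through middle-aged female 2 at 10.8%, and the ratio is 1.30 to 2.16 in young and 0.48 to 0.84 in middle-aged libraries.

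No difference by sex was detected for the 10 genes. In edgeR, 0 of the 10 passed an adjusted p under 0.05 for sex, which 0.0381% of tested genes did, and 0 had an unadjusted p under 0.05 (0.754% of tested genes did). The male-to-female log2 fold changes lay between -0.65 for Klra5 and 0.51 for Klra10. DESeq2 also called 0 of the 10 for sex. In the test of whether the age difference depends on sex, 0 of the 10 passed in edgeR or in DESeq2 (0.0% of tested genes passed in edgeR), and 0 of the 10 had an unadjusted edgeR p under 0.05 (1.2% of tested genes). With only 2 to 3 libraries in a group, the interaction had standard errors of 0.63 to 1.07. Klra4 differed by -1.93 in males alone and by -1.50 in females alone (log2, middle-aged over young).

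Of the 4 Klra genes in the table beyond these 10, Klra2, Klra11-ps and Klra17 were nearly silent, with 0 to 79 counts for their sum in a library. The fourth, Klra13-ps, is annotated as a pseudogene and was as abundant as the main receptors. It stood at 313 CPM per kb (SD 95.04, n = 11), beside 280.1 for Klra7, and its counts equalled 15.8% to 52.95% of the summed counts of the 10 genes. It holds 23.6% of the 31-base words of Klra7, which is most of those that Klra7 has in common with any gene. EdgeR's log2 fold change with age was -0.12 for it (standard error 0.26, adjusted p = 1.00). With Klra13-ps added to the sum, a step chosen after the values were seen, Klra3 took 4.79% to 10.0% in young and 11.2% to 13.8% in middle-aged libraries.

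No listed gene of a signalling partner of the receptors or of an MHC class I chain passed the test of age. Tyrobp, the DAP12 adaptor gene, was at 49.6 CPM in the lowest, 117 in the median and 173 CPM in the highest young library. It was at 47.9 and 34.2 CPM in middle-aged males, and at 41.8, 188 and 30.1 CPM in middle-aged females. As with Klra8, 4 middle-aged libraries were below the lowest young one, and female 2 was above the highest (log2 fold change -0.88, standard error 0.45, edgeR adjusted p = 1.00). Without female 2 it was -1.53 (standard error 0.33, edgeR adjusted p = 0.249), with an unadjusted p under 0.05. Female 2 was also the library with the myeloid gene Lyz2 at 1058 CPM. With all 11 libraries, none of the 9 adaptor and kinase genes, Tyrobp, Hcst, Syk, Zap70, Lck, Fyn, Vav1, Plcg1 and Plcg2, had an edgeR p under 0.05. The same held for the 3 inhibitory signalling genes (Ptpn6, Ptpn11 and Inpp5d). It also held for the 5 genes of MHC class I chains (H2-K1, H2-D1, B2m, H2-Q7 and H2-T23).

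Of 14 genes known to regulate Ly49 expression or these cells, 0 passed an adjusted p under 0.05. At an unadjusted edgeR p under 0.05, 2 were higher and 1 lower, where 2.99% of all tested genes had such a p. Id2, whose product restrains E proteins, was at 223 ± 27.6 (young, SD, n = 6) and 464 ± 113 CPM (middle-aged, SD, n = 5) without overlap (log2 fold change 1.03, edgeR adjusted p = 0.228). Il15ra, which presents IL-15, was at 18.0 ± 4.22 and 33.1 ± 5.86 CPM, also without overlap (0.88, edgeR adjusted p = 0.643). Of all tested genes, 1.01% had every middle-aged library above every young one. Lef1 was at 443 ± 75.0 and 319 ± 47.5 CPM (-0.47, edgeR adjusted p = 1.00). Values for Eomes, a T-box factor of CD8+ Tregs, were 164 ± 52.1 and 255 ± 81.9 CPM (edgeR adjusted p = 1.00). Tcf7, which encodes TCF-1, was at 1034 ± 382 and 937 ± 307 CPM (edgeR adjusted p = 1.00), and Ikzf2, which encodes Helios, at 34.5 ± 17.9 and 23.3 ± 10.1 CPM (edgeR adjusted p = 1.00).

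NK cells also carry Ly49 receptors, and of their marker genes Ncr1 was low in the 4 libraries with the least Klra4. Ncr1, the gene of the NK receptor NKp46, was at 25.1 CPM in the lowest, 72.9 in the median and 120.1 CPM in the highest young library. It was at 1.81 and 10.6 CPM in middle-aged males, and at 6.25, 48.8 and 22.6 CPM in middle-aged females. Middle-aged female 2, the highest of its age in Klra4 and Klra8, was also the highest in Ncr1. Not every NK marker had this layout. Middle-aged female 1, the lowest library in Klra4, was at 95.1 CPM of Klrb1c, 129.7 CPM of Fcer1g and 589.8 CPM of Klre1. That Klre1 level was the highest of all 11. In the same library Cd244a (4.34 CPM), Tyrobp (41.8 CPM) and Itga2 (6.04 CPM) were, like Ncr1, below the lowest young library. Of the 9 NK cell markers 3 were lower at an unadjusted edgeR p under 0.05 (Ncr1, Klrb1c and Cd244a). Among all tested genes, 2.99% had such a p in either direction. In the NK list 0 passed an adjusted p under 0.05, and the median log2 fold change was -0.78. Klre1 had the 1 positive estimate of the 9 (0.65, edgeR adjusted p = 1.00), with 132 to 397 CPM in the young group and 203 to 589.8 CPM in the other. Klre1 also differed by replicate number, at 341 to 589.8 CPM in the libraries numbered 1 and 132 to 268 CPM in the others. All 9 NK markers summed to 568.06 to 817 CPM in the young group and 381 to 898 CPM in the other. Without Klre1, a step chosen after the values were seen, the other 8 summed to 228 to 685 CPM and 141 to 522 CPM. None of Ncr1, Klrb1c and Fcer1g was at 0 in any library. The part of NK cells in the Klra4 values was not tested.

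**Figure D5:**
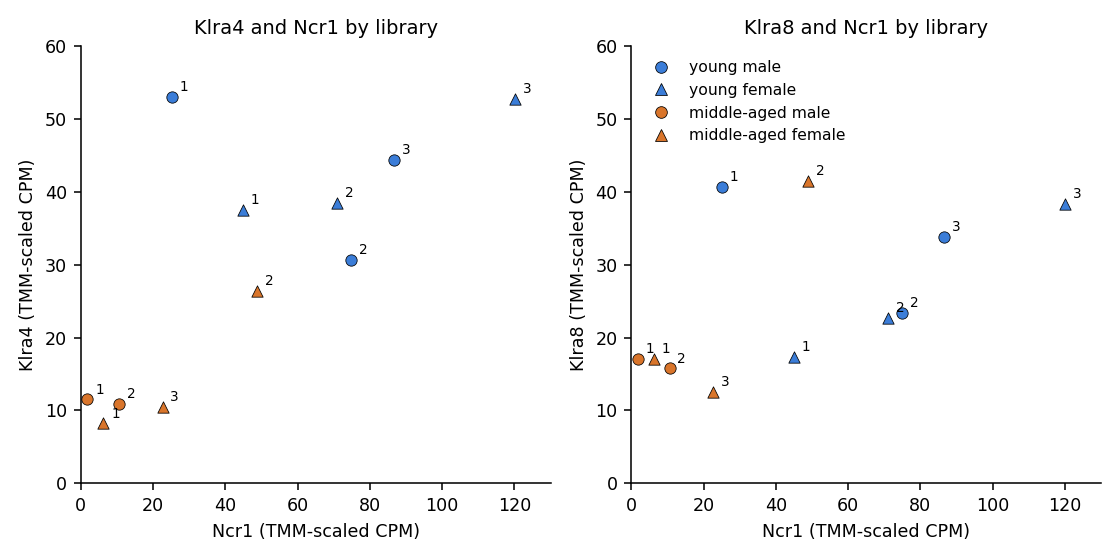
Level of Klra4 (left) and Klra8 (right) against that of the NK cell gene Ncr1 (CPM after TMM scaling on both axes), with 1 point for each library labelled by replicate number. Middle-aged libraries 1 and 3 of females and 1 and 2 of males lie at 8.21 to 11.5 CPM of Klra4 and 1.81 to 22.6 CPM of Ncr1, and young male 1 has a high Klra4 level (53.0 CPM) beside a low Ncr1 level (25.1 CPM).

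Markers of other cell types were detected, and the share of cells they stand for was not estimated. Summed markers of myeloid cells were at 30.2 to 222 CPM in the young group and 88.8 to 1183 CPM in the other, the latter in female 2, and 1 of 6 (Lyz2) was higher at an unadjusted p. Plasma cell markers reached 20.5 and 199 CPM, B cell markers 313 and 355 CPM, dendritic cell markers 48.9 and 49.2 CPM, CD4 T cell markers 23.6 and 25.7 CPM, and markers of gamma-delta and NKT cells 45.3 and 58.5 CPM in the highest young and middle-aged library. Among middle-aged libraries, female 2 was the highest in plasma cell, B cell, dendritic cell and CD4 T cell markers. For gamma-delta and NKT cell markers it was female 1. Of these lists, 0 genes had an edgeR p under 0.05. Erythroid and platelet markers were at 21.5 to 114 and 0.761 to 24.3 CPM, with 2 of 4 tested genes lower at an unadjusted p. Over all tested genes, 2.99% had an unadjusted edgeR p under 0.05. Of the 9 markers of the sorted cells themselves, 0 had an edgeR p under 0.05, with sums of 6893 to 11607 CPM and 6994 to 10685 CPM.

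The genes whose levels ran most like those of Klra7 and of Klra4 across the 11 libraries were taken as the 5 tested genes with the highest correlation. For Klra7 these were Gnpda2 (Pearson's r = 0.96 on log2 CPM), Mrps22 (0.94), Skap1 (0.94), Cenpq (0.94) and Sdr39u1 (0.94), whose log2 fold changes with age lay between 0.02 and 0.32. For Klra4 they were Myb (0.97), Col8a2 (0.93), Gzma (0.92), Gm6637 (0.90) and Chn2 (0.90), with log2 fold changes of -2.49 to -1.46. Myb encodes a transcription factor of haematopoietic progenitors and T cells, and its mean levels were 37.6 and 11.3 CPM in the young and middle-aged group. Gzma encodes the cytotoxic protease granzyme A, at means of 327 and 94.9 CPM. Among the 10 genes, Klra7 ran most like Klra1 (0.98) and Klra9 (0.90), while Klra4 ran most like Klra14-ps (0.83) and Klra8 (0.77) and opposite to Klra3 (-0.72). These coefficients describe 11 libraries that differ in age, replicate number and sequencing depth, and carry no test.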

How the data were processed

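RNA of sorted splenic CD8+ Tregs was sequenced from low-input SMARTer libraries. The authors deposited counts, whole numbers of reads per gene for 54532 genes and 11 libraries, without normalization. The submitters' processing notes name kallisto and mm10 without versions or roles, and the treatment of reads shared by paralogs is not given in the sources used here. Coordinates of all 14 Klra genes equal those of GENCODE M21 (GRCm38). The study describes the libraries as biologically independent.

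Counts were scaled with TMM factors, passed through filterByExpr by age (at least 10 counts, and 15 in total) and fitted in edgeR 4.0.16 (R 4.3.3) with robust quasi-likelihood on sex and age, adjusting p by Benjamini-Hochberg over 13129 genes. Log2 CPM used a prior count of 2. Shares, sums and ratios are descriptions without a test. Named were the 10 genes, fixed lists of partners, regulators and cell type markers, and the 5 genes most like Klra7 and Klra4, the highest inhibitory and activating members per kb. Members and lists were chosen with earlier results of these data known. Coding sequences and 31-base words came from GENCODE M21 transcripts. The alternatives were DESeq2 1.42.0, limma 3.58.1 (voom), other scalings and filters, blocks for replicate number, each sex alone and each library left out. The steps were tested on simulated counts.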

Additional observations from a re-analysis of the deposited data

Results flagged for a closer look

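Within each age group, the highest or lowest library was compared with the rest by Dixon's gap over range for the levels and shares of the 10 genes, the activating share and the summed level, 44 groups of values in all. Chance flags about 1 group in 20, and 8 were flagged. The groups are not independent, since levels, shares and sums hold the same genes and libraries, so the count of flags is no test. Middle-aged female 2 lay far above the other 4 middle-aged libraries in Klra4 (26.4 CPM against 8.21 to 11.5), Klra8 (41.5 CPM against 12.5 to 17.1), Klra14-ps (16.0 CPM against 4.33 to 6.04), the Klra8 share (6.45% against 0.839% to 2.34%) and the activating share (10.8% against 1.25% to 3.98%). Middle-aged female 1 lay far above its group in Klra1 (351 CPM against 57.7 to 139.6) and Klra9 (179.9 CPM against 46.7 to 84.3). Young male 1 lay far above its group in Klra1 (261 CPM against 69.7 to 133). These are values of single libraries and were kept in all results unless a sentence says otherwise.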

How the results depend on the processing

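EdgeR called 3 genes for age and 0 of the 10 Ly49 genes. DESeq2 called 112 genes and limma voom 138, with 1 Ly49 gene each, Klra4. The count over all genes was 17 with at least 1 count in any library, 5 with at least 10 in every library (where Klra10 could not be fitted), 6 in libraries of over 10000000 counts, 5 with no sex term, and 0 in males or females alone (202 and 277 at an unadjusted p under 0.05). Leaving out 1 library gave 1 to 4 genes for age and 0 to 5 for sex. Same-numbered libraries of a sex correlated at 0.03 to 0.43 in their deviations from group means, over 0.1 in 4 of 5 pairs. Pairing was taken only where every pair exceeded 0.1, so it was not taken here. As a hint from the data, the median correlation over all groups was 0.35 for pairs of the same number and -0.19 for others. Deviations cancel out within a group, so a positive value for same-numbered pairs pushes that of the others down. The contrast of both medians is therefore partly fixed in advance. By their highest correlation, 9 of 11 libraries ran most like one of their own number. A replicate block shared by both sexes called 19 genes and 0 Ly49 genes. The block within sex called 2. The directions that turned were those of Klra1 (-0.27 in males alone, -0.038 with the replicate block within sex, -0.41 without middle-aged female 1), Klra7 (-0.032 in males alone, -0.27 without that library), Klra9 (-0.19 and -0.18), Klra5 (0.056 in voom) and Klra6 (0.37 in libraries of over 10000000 counts, 0.15 in voom, 0.015 without young female 1, 0.049 without young male 1). With 1 library left out, the log2 fold change lay between -0.41 and 0.62 for Klra1, -0.57 and 0.049 for Klra6, -0.27 and 0.57 for Klra7, and -0.18 and 0.47 for Klra9. The cause was not tested. Klra4, Klra3, Klra8, Klra10 and Klra14-ps kept their direction under every alternative in which they were fitted. The age difference of the activating share lay between -6.31 and -3.57 percentage points with 1 library left out, and that of the summed level between -0.19 and 0.28 in log2. With 5 and 6 libraries and reads shared between close copies, differences of the size of the standard errors cannot be seen here.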
